A study of Mus musculus with 24 samples.

Results

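Mouse amniotic fluid cells (MACs) were compared with the endothelial-like cells made from them by transduction with the Ets transcription factors Etv2, Erg and Fli1, which are called reprogrammed amniotic cell-derived vascular endothelial cells (RACVECs). The comparison used 6 of the 24 RNA sequencing libraries of the series, 3 of RACVECs and 3 of MACs, all those with these labels. MACs were grown from the amniotic fluid of E11.5 to E13.5 C57BL/6J embryos, and each replicate was an independently isolated culture pooled from embryos of mixed sex. RACVECs were MACs that carried lentiviruses for the mouse factors, each under the PGK promoter, and were propagated in endothelial medium with VEGF-A, heparin and SB431542, an inhibitor of the TGF-beta receptor. The labels name no virus for the MACs, and the study's methods describe amniotic cells before conversion in another medium, so an effect of the factors and one of medium, virus or time in culture cannot be told apart. The other groups enter only as noted, namely Akt-RACVECs and Akt-MACs, 3 libraries each, whose cells carried in addition a lentivirus for myristoylated Akt, a constantly active form of the kinase.

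Expression was given as FPKM, a fragment count scaled for transcript length and library size. The FPKM of all RefSeq transcripts of a gene were summed, and 14059 of 22282 genes had a mean of at least 1 over the 6 libraries and were tested. Calls came from limma on log2(FPKM + 1). To be called higher or lower in RACVECs, a gene needed a fold change of over 1 in size on the log2 scale together with an adjusted p under 0.05. All fold changes below are RACVEC minus MAC on this scale, which understates the change of genes with low values, and are given with their standard error (SE). The SE and p rest on 1 spread per gene pooled over all 8 groups of the series. They can therefore be smaller or larger than MACs and RACVECs alone would give. Where a group is listed at 0 the fitted value depends on the 1 added to each FPKM and is no bound on the change.

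Endothelial cells line blood vessels and hold the vessel wall together through junctions built on VE-cadherin, while receptors such as Vegfr2 and the Tie receptors carry growth and stability signals into the cell. Ets factors bind DNA at a core of GGAA, and nearly every known endothelial enhancer contains such sites. Etv2 acts at the start of the endothelial and blood lineages in the embryo, and Erg and Fli1 keep the endothelial programme on afterwards.

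The labels were checked against the transcripts of the factors and against cell type markers. Etv2 was listed at 0 in every MAC library and at 860, 301 and 659 FPKM in RACVEC 1, 2 and 3. Fli1 was between 0 and 1.61 FPKM in the MACs and between 178 and 257 in the RACVECs. Erg was the least abundant factor, with 3.91, 13.8 and 0.90 FPKM in the RACVECs against 0 in all MACs, and was not called (adjusted p = 0.299). The files do not separate the viral from the endogenous transcripts. Each of the 10 endothelial markers was above 0 in at least 1 library. Their summed level was 53.6 to 96.0 FPKM in the MACs and 2171 to 4482 in the RACVECs. The 10 mesenchymal markers were each above 0 in at least 1 library too, with sums of 4192 to 11550 FPKM in the MACs and 3035 to 8204 in the RACVECs. Of 9 macrophage markers, 6 were listed at 0 in all libraries, among them the defining Adgre1, C1qa and Tyrobp, but the summed level was higher in RACVECs, at 11.4 to 307.2 FPKM against 0.79 to 14.7, and Mrc1 was above 0 only there. Of 10 markers of simple epithelium 5 were at 0 throughout, among them Cdh1 and Epcam, and the sum was 18.4 to 64.6 FPKM in MACs and 131.2 to 1171 in RACVECs, mostly from Krt19. The pluripotency genes Pou5f1 and Nanog were at 0 throughout, while Sox2, also a gene of neural progenitors, was at 94.3, 0 and 224 FPKM in MACs and 18.5, 4.54 and 1.97 in RACVECs. In bulk samples such as these, fewer cells of a type and less RNA per cell cannot be told apart.

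Across the genes tested, 218 were called higher in RACVECs, which is 1.55%, and 226 were called lower, which is 1.61%. The median log2 fold change of all genes tested was 0.00166, with a positive change in 7042 genes and a negative one in 7017. A minority of the called genes were at 0 throughout 1 group: 20 of the higher genes were listed at 0 in every MAC library, and 49 of the lower genes were listed at 0 in every RACVEC library. The others had a value above 0 in at least 1 library of each group, and the median level of the 218 higher genes was 7.88, 7.91 and 9.91 FPKM in MAC 1, 2 and 3 and 84.7, 141 and 99.7 in RACVEC 1, 2 and 3. The genes that were higher reached larger values, with a RACVEC mean of at least 100 FPKM in 120 of them, whereas 42 of the lower genes had a MAC mean of at least 100 FPKM. Every RACVEC library was above every MAC library in 215 of the 218 higher genes, and every RACVEC library was below every MAC library in 214 of the 226 lower genes. Over all genes tested these 2 patterns occurred in 12.0% and 11.3%. At an unadjusted p below 0.05, 821 genes had a log2 fold change above 1 and 1161 one below -1. The counts of list members at an unadjusted p given below need no such fold change. No like share over all genes stands beside them, so they do not set a list apart.

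The cultures of a group were not alike. The header of the RACVEC 3 file names Flk1, day 65 and GFP+ cells, which the labels do not mention. Flk1 is another name of Kdr (Vegfr2), a gene tested below, and what it stands for in the header is not known. MAC 2 correlated with RACVEC 1, with which the file headers pair it, at r = 0.874. This was closer than with MAC 1 (0.833) or MAC 3 (0.794), and without MAC 2 the counts were 268 genes higher and 580 lower. RACVEC 2 was the lowest of its group in 90 of the 226 lower genes (39.8%, beside 29.9% of all genes tested) and the highest in 102 of the 218 higher genes (46.8%, beside 32.9%), and without it the counts fell to 119 and 74. Without RACVEC 3 they were 135 and 117, and without MAC 1 they were 156 and 145. A fit of the 6 libraries alone, which estimates the spread from fewer samples and from MACs and RACVECs only, called 59 genes higher and 17 lower.

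**Figure D1:**
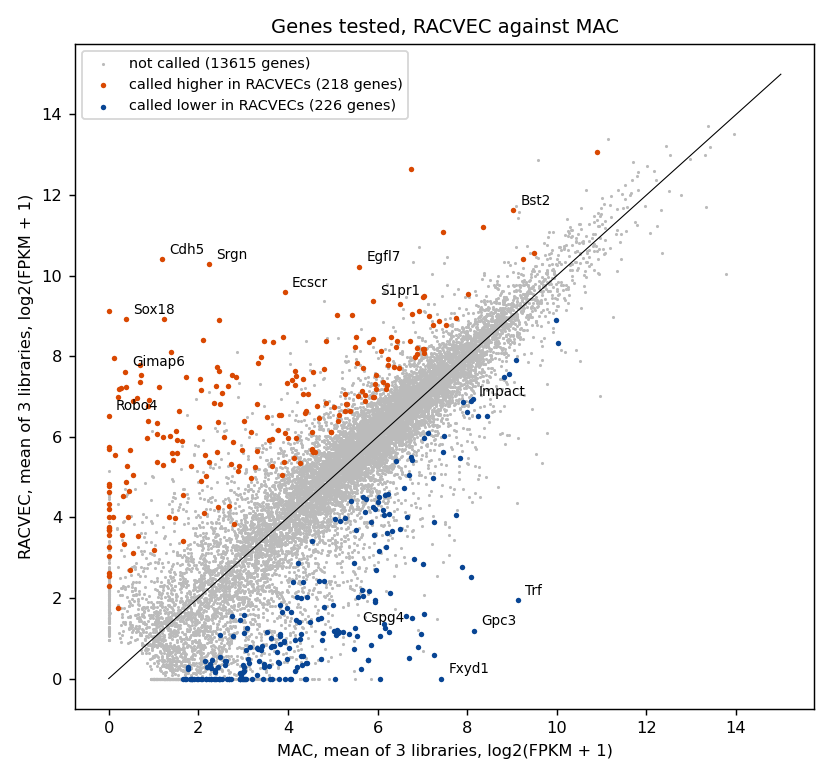
Mean log2(FPKM + 1) of 3 MAC libraries (x axis) and 3 RACVEC libraries (y axis) for the 14059 genes tested, 1 point a gene, with the line of equality. The 218 genes called higher in RACVECs are orange and the 226 called lower are blue, some of them along the axes where 1 group is at or near 0.

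The promoters of the most raised genes were read for the sequences that Ets factors bind. Of the 25 called genes with the largest positive fold changes and no overlap between the groups, leaving out Etv2 and Fli1 themselves, 16 of 23 had a promoter in the RefSeq table (GRCm38.p6). In 6 of these the 250 bases before the transcription start held an extended form of the Ets core on either strand. No share over all genes was counted for this search, so the 6 do not set these genes apart. The forms searched were CCGGAAG, then CAGGAAG with another base before the core, and the longer string AACAGGAA. Of the 6 genes with a match, all called higher in RACVECs, 4 are shown as examples. Their sequences run 5′ to 3′ on the gene's strand, with the matches in capitals. Whether the factors act at these promoters was not tested.

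Srgn (serglycin), chr10:62527446-62527695, minus strand, CCGGAAG at -52 to -46 from the start:
Srgn: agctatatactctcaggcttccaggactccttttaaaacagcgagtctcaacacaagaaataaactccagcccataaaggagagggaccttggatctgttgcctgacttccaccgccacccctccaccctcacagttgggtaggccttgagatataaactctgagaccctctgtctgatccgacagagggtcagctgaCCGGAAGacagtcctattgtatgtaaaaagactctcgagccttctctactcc
Slfn4 (Schlafen 4), chr11:83174936-83175185, plus strand, CCGGAAG at -84 to -78 and CAGGAAG at -72 to -66, both on the opposite strand and therefore read here as CTTCCGG and CTTCCTG:
Slfn4: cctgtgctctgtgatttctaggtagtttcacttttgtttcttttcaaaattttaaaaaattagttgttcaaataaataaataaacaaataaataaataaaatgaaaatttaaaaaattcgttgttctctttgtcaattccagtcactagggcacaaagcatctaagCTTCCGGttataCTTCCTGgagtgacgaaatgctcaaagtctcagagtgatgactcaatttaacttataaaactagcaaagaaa
Hcls1 (a Lyn substrate of blood cells), chr16:36934733-36934982, plus strand, CAGGAAG at -60 to -54:
Hcls1: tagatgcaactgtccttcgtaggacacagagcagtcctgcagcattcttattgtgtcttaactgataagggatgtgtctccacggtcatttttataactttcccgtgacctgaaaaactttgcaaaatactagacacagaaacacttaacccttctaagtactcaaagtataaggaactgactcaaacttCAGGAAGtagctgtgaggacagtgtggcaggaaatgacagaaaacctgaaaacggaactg
Robo4 (an endothelial guidance receptor), chr9:37401722-37401971, plus strand, CAGGAAG at -50 to -44:
Robo4: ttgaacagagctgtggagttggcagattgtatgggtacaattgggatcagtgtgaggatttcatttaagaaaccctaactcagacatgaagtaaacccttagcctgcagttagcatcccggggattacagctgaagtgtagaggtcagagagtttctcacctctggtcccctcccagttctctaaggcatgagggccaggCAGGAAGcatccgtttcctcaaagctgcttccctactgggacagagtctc

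In promoter windows of 300 bases, from 250 before to 50 after the start, CAGGAAG was found on either strand in 19.8% of 202 windows of higher genes, 6.93% of 231 windows of lower genes and 12.3% of 13896 windows of all genes tested. AACAGGAA was found in 3.47%, 0.866% and 2.20% of the same windows. CCGGAAG went the other way, with 10.4% of the windows of higher genes, 12.1% of those of lower genes and 16.0% of all. The bare core GGAA was in 98.0%, 92.6% and 95.4%, so that it hardly separates the sets. Strings read for comparison, ACAAT and ACAAAG, which resemble the sites of Sox factors, were in 21.3% and 16.8% of the windows of higher genes and in 20.7% and 14.0% of all. The windows of 1 gene can overlap, the strings CAGGAAG and, where it runs into it, AACAGGAA can share bases, and a match is a description of the letters, not a bound site.

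Endothelial junction and surface genes were the list with the most calls. Of 24 members, all tested, 11 were higher and 0 lower, 15 were above every MAC library in every RACVEC library, and the median log2 fold change was 2.90. Robo4, whose promoter is shown above, was listed at 0 in all MACs and at 53.6, 112 and 125 FPKM in RACVEC 1, 2 and 3 (6.52 ± 0.54 SE, adjusted p = 1.14e-06). Ecscr, a small surface protein of endothelial cells, was at 15.9, 3.77 and 42.4 FPKM in MAC 1, 2 and 3 and at 691, 1108 and 599 in the RACVECs (5.67 ± 0.56, adjusted p = 1.51e-05). Egfl7, a secreted protein of the vessel wall, was already present in MACs, at 66.9, 25.02 and 61.6 FPKM, and reached 671, 1761 and 1450 (4.64 ± 0.55, adjusted p = 7.44e-05). In these 3 genes the groups were far apart in every library.

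In the next 3 genes of the list RACVEC 3 was the low library of its group. Cd93, a lectin-like receptor, had 0.84 to 1.68 FPKM in MACs and 1076, 1113 and 95.1 in the RACVECs (7.70 ± 1.06, adjusted p = 0.000489). Esam, an adhesion molecule of tight junctions, was at 210 and 188 FPKM in RACVEC 1 and 2 but at 2.36 in RACVEC 3, just above the 1.74 of MAC 2 (5.19 ± 1.09, adjusted p = 0.0115), and its call was lost without RACVEC 2. Eng, the TGF-beta coreceptor endoglin, had 515, 967 and 91.9 FPKM in the RACVECs and 18.0, 103 and 47.1 in the MACs, so that the groups overlapped (2.98 ± 0.67, adjusted p = 0.0176). RACVEC 3 was also lowest in Pecam1 (CD31), at 15.3 FPKM beside 84.1 and 155, while its Cdh5 (VE-cadherin) was the highest of the 3, at 1887 FPKM. The remaining calls were Cdh5 and Pecam1 themselves, Icam2, Podxl, which encodes the surface mucin podocalyxin, and Cgnl1, a junction scaffold protein. RACVEC 3 was not the lowest in these 3, with 46.0, 268 and 76.2 FPKM of Icam2, 223, 65.9 and 197 of Podxl and 126, 187 and 500 of Cgnl1 in RACVEC 1, 2 and 3.

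Several endothelial junction and surface genes did not reach the threshold. Cldn5, the main claudin of endothelial tight junctions, was at 23.9, 0 and 2.85 FPKM in the RACVECs and at 0, 0 and 11.51 in the MACs (adjusted p = 0.801). Emcn (endomucin) was at 149, 18.2 and 9.27 FPKM against 0, 17.5 and 0 (adjusted p = 0.0567). Cd34 was above the MACs in every RACVEC library, at 455 to 1845 FPKM against 54.5 to 298, without being called (adjusted p = 0.0965).

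Of 23 endothelial receptors tested, 5 were higher and 0 lower, with a median log2 fold change of 2.57. Tie1, the orphan receptor that works beside the angiopoietin receptor Tek, was at 0, 0 and 0.59 FPKM in MACs and at 60.8, 602 and 82.5 in RACVECs (6.97 ± 0.74, adjusted p = 1.95e-05). S1pr1, the sphingosine-1-phosphate receptor that steadies the barrier, had 39.1, 97.9 and 52.6 FPKM in MACs and 542, 619 and 880 in RACVECs (3.48 ± 0.35, adjusted p = 1.51e-05). Adgrf5, an adhesion G protein-coupled receptor, was at 1.13 to 10.2 FPKM in MACs and rose evenly, to 218, 174 and 204 (5.18 ± 0.53, adjusted p = 1.56e-05). All 3 stayed called whichever of the 6 libraries was left out and in the fit of the 6 libraries alone. Flt4 (Vegfr3), the receptor of lymphatic growth factors, was at 80.4 to 165 FPKM in RACVECs and 0.38 to 10.7 in MACs (4.51 ± 1.06, adjusted p = 0.0231), a call lost without MAC 2, RACVEC 2 or RACVEC 3. The fifth call was Kdr (Vegfr2).

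Tek itself was at 12.5, 17.1 and 27.9 FPKM in RACVECs and at 3.83, 4.28 and 0 in MACs, and was not called (adjusted p = 0.135). Aplnr, the apelin receptor, was listed at 0 in all MACs and at 34.3, 16.4 and 20.3 FPKM in RACVECs (adjusted p = 0.0985). Its ligand Apln was at 426, 503 and 883 FPKM against 225, 84.5 and 44.2 (adjusted p = 0.303). Of the 27 vascular growth factors tested limma called 0, with 3 higher and 2 lower at an unadjusted p below 0.05, and Vegfa was at 392, 96.3 and 281 FPKM against 292, 225 and 425.

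Other genes outside the lists were among the 15 genes with the largest rises. Scarf1, a scavenger receptor first found on endothelial cells, was at 0, 0 and 1.24 FPKM in MACs and at 109, 303 and 102 in RACVECs (6.85 ± 0.83, adjusted p = 9.3e-05). Bst1, an ectoenzyme that makes cyclic ADP-ribose, was at 0.80, 0 and 0 against 92.6, 64.6 and 524 (6.92 ± 1.10, adjusted p = 0.00141). Myct1, a target of Myc that endothelial cells express, was at 1.51, 0 and 0.70 against 61.5, 726 and 96.9 (6.66 ± 0.70, adjusted p = 1.9e-05). The highest RACVEC library was another in Bst1, where it was RACVEC 3, than in Scarf1 and Myct1, where it was RACVEC 2.

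The following called genes stand in none of the lists and were chosen after their values were seen, so they are given 1 by 1 and no share is drawn from them. Rasgrp3, an exchange factor for Ras and Rap, was at 0.58 to 1.09 FPKM in MACs and at 101, 297 and 57.0 in RACVECs (6.02 ± 0.86, adjusted p = 0.000683). Arap3, an Arf regulator, was at 3.10, 1.09 and 41.4 FPKM against 118, 257 and 183 (4.64 ± 0.74, adjusted p = 0.00144). Rasip1, which links Ras-like GTPases to vessel lumen formation, was at 2.90, 2.09 and 6.18 against 36.0, 214 and 11.8 (3.40 ± 0.88, adjusted p = 0.038). Fgd5, Rapgef3, Rapgef5, Sh2d3c, Dock4 and Prex2 were also called higher, with log2 fold changes from 1.78 for Rapgef3 to 4.79 for Rapgef5. RACVEC 2 was the highest library in all of these except Rapgef5.

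Another 3 called genes were chosen in the same way. Adcy4, an adenylate cyclase, was at 3.94, 11.1 and 1.92 FPKM in MACs and at 71.5, 221 and 88.5 in RACVECs (4.34 ± 0.55, adjusted p = 0.000177). Npr1, the receptor for atrial natriuretic peptide, rose to 49.8, 208 and 52.8 FPKM from 1.27 to 7.80 (3.94 ± 0.87, adjusted p = 0.0162). Spns2, which exports sphingosine-1-phosphate, rose to 192, 347 and 130 FPKM from 16.5 to 59.6 (2.88 ± 0.56, adjusted p = 0.00634).

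**Figure D2:**
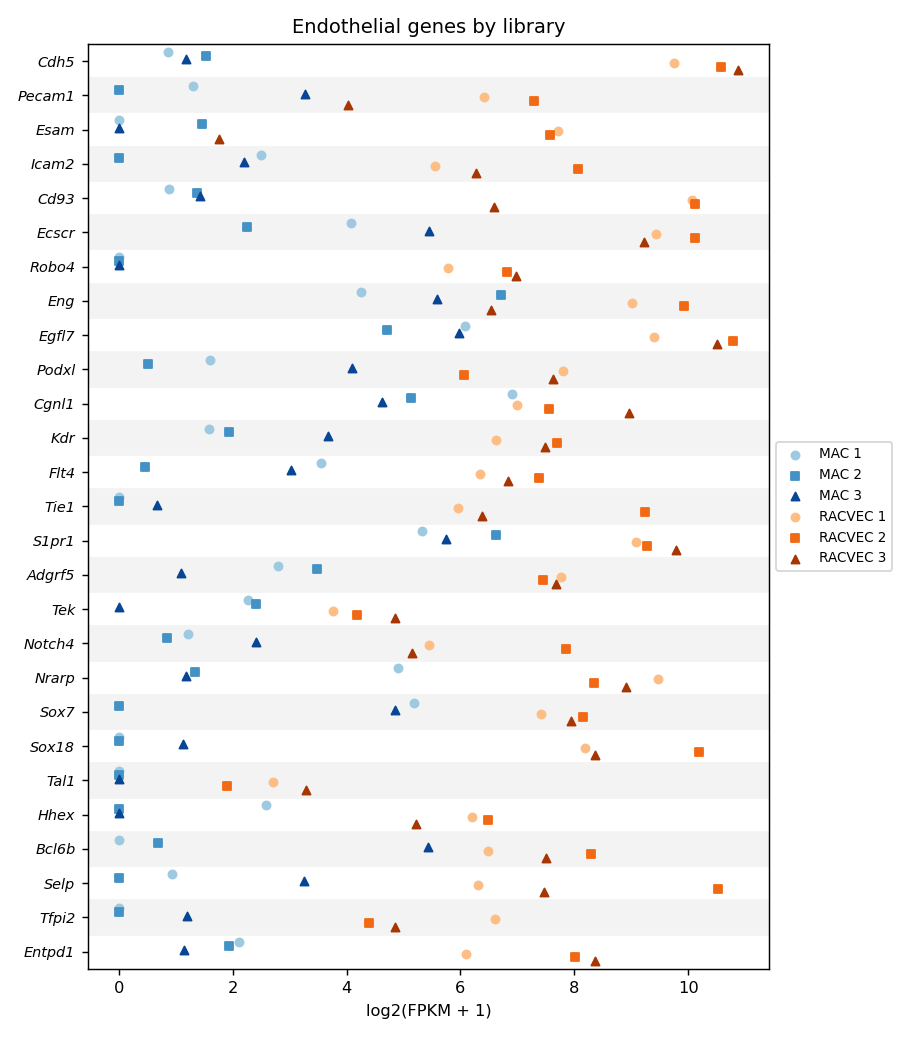
log2(FPKM + 1) of 27 endothelial genes (rows) in each library, with MAC libraries in blue and RACVEC libraries in orange. The groups stand apart in most rows, RACVEC 3 falls toward the MACs in Esam, and Eng overlaps.

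Among 32 other transcription factors of endothelial and blood-forming cells tested, 5 were higher and 0 lower, with a median log2 fold change of 0.50. Sox7 and Sox18, both SoxF factors, were called, while the third SoxF gene, Sox17, was listed at 0 in all 6 libraries. Sox7 was at 35.2, 0 and 27.8 FPKM in MACs and at 170, 284 and 246 in RACVECs (4.50 ± 0.95, adjusted p = 0.0122), a call lost without RACVEC 2. Hhex, a homeobox factor of endothelium and liver, was at 4.96, 0 and 0 FPKM against 72.3, 88.4 and 36.4 (5.11 ± 0.85, adjusted p = 0.00213). Bcl6b, a repressor, was at 0, 0.60 and 42.3 against 88.2, 314 and 181 (5.39 ± 1.18, adjusted p = 0.0149), a call lost without MAC 1, RACVEC 2 or RACVEC 3. Tal1, which acts with Etv2 in blood and vessel precursors, came on at a low level, from 0 in all MACs to 5.50, 2.71 and 8.77 FPKM (2.63 ± 0.71, adjusted p = 0.0467). It lost its call whichever library was left out.

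The other Ets family members were not called. Etv1, Etv4 and Etv5, relatives that respond to Fgf signalling, were each below the MACs in every RACVEC library. Etv5 had 58.7, 32.1 and 48.9 FPKM in RACVECs and 315, 156 and 179 in MACs (-2.17 ± 1.05, adjusted p = 0.239). Ets1 was nearly level, at 96.6, 67.0 and 126 FPKM against 75.8, 59.5 and 113 (adjusted p = 0.848). Lmo2, the partner of Tal1, was at 135, 346 and 89.8 FPKM in RACVECs and at 137, 0 and 2.04 in MACs, so that MAC 1 alone overlapped (adjusted p = 0.0994).

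In the Notch pathway, which sets arterial identity and limits sprouting, 2 of 18 genes tested were higher and 0 lower. Notch4, the endothelial receptor, was at 1.33, 0.79 and 4.33 FPKM in MACs and at 42.8, 232 and 34.6 in RACVECs (4.66 ± 1.04, adjusted p = 0.0168), a call lost without MAC 1 or RACVEC 2. Nrarp, a feedback inhibitor that Notch turns on, was at 28.8, 1.51 and 1.25 FPKM against 707, 324 and 478 (6.44 ± 0.95, adjusted p = 0.000835). The ligand Dll4 came close, at 25.04, 21.2 and 4.62 FPKM against 0, 0 and 0.96 (adjusted p = 0.0521). Other targets did not follow Nrarp: Hey1 was at 9.96, 9.93 and 0.94 FPKM in RACVECs and at 182, 1.78 and 24.2 in MACs, and Hes1 overlapped between the groups.

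Of 23 genes of haemostasis and leukocyte adhesion tested, 3 were higher and 0 lower. Selp (P-selectin), which captures leukocytes on activated endothelium, was at 0.90, 0 and 8.53 FPKM in MACs and at 77.8, 1467 and 175 in RACVECs (6.70 ± 1.03, adjusted p = 0.00112). Entpd1 (CD39), which removes ATP and ADP at the cell surface, was at 1.22 to 3.30 FPKM against 67.6, 256 and 330 (5.76 ± 0.58, adjusted p = 1.51e-05). Tfpi2, an inhibitor of coagulation proteases, was at 0, 0 and 1.29 against 96.2, 20.1 and 28.0 (4.89 ± 1.32, adjusted p = 0.0461), and lost its call whichever library was left out. Another 2 genes known from mature endothelium were near 0 in both groups: Vwf (von Willebrand factor) did not exceed 3.17 FPKM and Nos3 (endothelial nitric oxide synthase) did not exceed 2.46 in any library, and neither passed the filter.

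Genes usually seen in leukocytes formed another group of calls. Of 30 such genes 15 were tested, 10 were above 0 but under the filter and 5 were listed at 0 throughout, and 5 of the 15 were higher and 0 lower. In MAC 1, 2 and 3, 7, 8 and 6 of the 15 were at 0. A gene at 0 in all MACs passed the filter only through the RACVECs and could not be called lower. Srgn, which encodes the proteoglycan of secretory granules and whose promoter is shown above, was at 0, 104 and 0 FPKM in MACs and at 1047, 1908 and 971 in RACVECs (8.05 ± 1.41, adjusted p = 0.00325). Hcls1, an actin regulator of blood cells, was at 1.43, 0.83 and 0 against 108, 310 and 185 (6.81 ± 1.24, adjusted p = 0.00432). MAC 2 stood out with its 104 FPKM of Srgn, which was still below every RACVEC library. The list of 19 macrophage markers had a summed level of 9.71 to 26.6 FPKM in MACs and 192.8 to 751.8 in RACVECs and 10 members at 0 throughout. Cd14 alone gave 155, 317 and 724 FPKM of the sum in RACVEC 1, 2 and 3. The median of the 8 members tested was 5.81, 4.71 and 4.38 FPKM there. The part of this list in the result was not tested.

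Gimap genes encode GTPases known from lymphocytes and lie together on chromosome 6. Gimap6 (mm9, chr6:48651581-48658224) was at 0, 1.16 and 0 FPKM in MACs and at 126, 440 and 132 in RACVECs (7.24 ± 0.51, adjusted p = 1.41e-07). Gimap4 (chr6:48634548-48642061) was listed at 0 in all MACs and at 27.4, 11.1 and 11.3 (4.02 ± 1.04, adjusted p = 0.0371), and lost its call whichever library was left out. Gimap5 (chr6:48696196-48704209) was also listed at 0 in all MACs and at 5.17, 43.4 and 8.15 (3.76 ± 0.69, adjusted p = 0.00454). Gimap8 was at 0 in all MACs and at 1.20 to 6.34 FPKM in RACVECs (adjusted p = 0.0769). Reads of these related genes may be shared between them. Leukocyte genes outside this cluster differed: the integrin chain Itgb2 did not exceed 1.78 FPKM in any library, and Laptm5 was at 4.77, 0 and 0 in RACVECs. Cd53 was at 627, 233 and 135 FPKM against 10.1 to 24.1 (adjusted p = 0.188).

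Interferon-induced and Schlafen genes were the second list by number of calls, with 9 of 38 higher and 0 lower and a positive fold change in 35 (median 1.87). All 5 of the called Schlafen genes lie on chromosome 11, between Slfn5 (mm9, chr11:82764851-82776443) and Slfn3 (chr11:83004832-83028656). Schlafen genes are known from the quiescence of lymphocytes and myeloid cells. Slfn4 was at 0, 0 and 0.28 FPKM in MACs and at 41.0, 264 and 1372 in RACVECs (7.84 ± 1.46, adjusted p = 0.00491). Slfn5 was at 1.12, 20.7 and 0.73 against 425, 187 and 479 (6.29 ± 1.07, adjusted p = 0.00244). Slfn3 was at 2.59, 0 and 0.76 against 37.8, 77.4 and 192 (5.50 ± 0.77, adjusted p = 0.000584). RACVEC 3 was the highest library in all of them, as it was in Slfn2 (252, 241 and 751 FPKM) and Slfn9 (24.4, 38.3 and 55.2). Slfn3 and Slfn4 are close paralogues, and how their reads were divided is uncertain. Slfn8, at 11.6, 4.40 and 6.90 FPKM against 5.45, 2.19 and 1.22, was not called (adjusted p = 0.323).

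The other calls of this list were Oas1a and Oas3, which sense double-stranded RNA, Gbp4, a guanylate-binding protein, and Bst2, which tethers viruses at the membrane. Bst2 was abundant in both groups, at 1044, 371 and 361 FPKM in MACs and 2989, 2718 and 3833 in RACVECs (2.60 ± 0.65, adjusted p = 0.0318). Oas1a was at 27.1, 1.97 and 1.29 against 80.5, 129 and 237 (4.56 ± 0.91, adjusted p = 0.00778). MAC 1 was high in the classical reporters of an interferon response, which were not called: Ifit1 was at 466, 60.2 and 24.8 FPKM in MAC 1, 2 and 3 and at 188, 76.7 and 315 in RACVECs (adjusted p = 0.762). Isg15 likewise had 1076 FPKM in MAC 1 against 174 and 56.2 in the other MACs, and 1350, 358 and 1094 in RACVECs (adjusted p = 0.392). From the 6 libraries alone, 2 of the 9 calls were made. Ifne (interferon epsilon), which is not in the list and was chosen after its values were seen, went from 0 in all MACs to 64.95, 31.2 and 64.4 FPKM (5.69 ± 1.00, adjusted p = 0.00337).

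Of 36 chemokines, cytokines and their receptors tested, 3 were higher and 1 was lower. Ccl2, which attracts monocytes, was already abundant in MACs at 1110, 2819 and 2176 FPKM and was almost equal in the RACVECs at 8445, 8585 and 8606 (2.17 ± 0.53, adjusted p = 0.0285). Csf3 (G-CSF) was at 2.76, 0 and 0 against 92.2, 277 and 73.3 (6.32 ± 1.19, adjusted p = 0.00527). Cxcl3, which attracts neutrophils, was at 1.98, 0 and 1.10 against 94.8, 88.0 and 151 (5.89 ± 1.42, adjusted p = 0.0261). Csf3 kept its call whichever library was left out, Cxcl3 lost it in each case, and Ccl2 kept it only without MAC 2. Il34, a ligand of the macrophage receptor Csf1r, was the member that fell, from 22.2, 3.83 and 53.7 FPKM to 0.84, 0 and 0 (-3.90 ± 1.00, adjusted p = 0.0361). Cd14, the endotoxin coreceptor and the only called member of the macrophage list, rose to 155, 317 and 724 FPKM from 6.83 to 20.3 (4.90 ± 1.19, adjusted p = 0.0271), in libraries in which Csf1r did not exceed 0.79. The call of Cd14 was lost without MAC 2, MAC 3, RACVEC 2 or RACVEC 3.

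**Figure D3:**
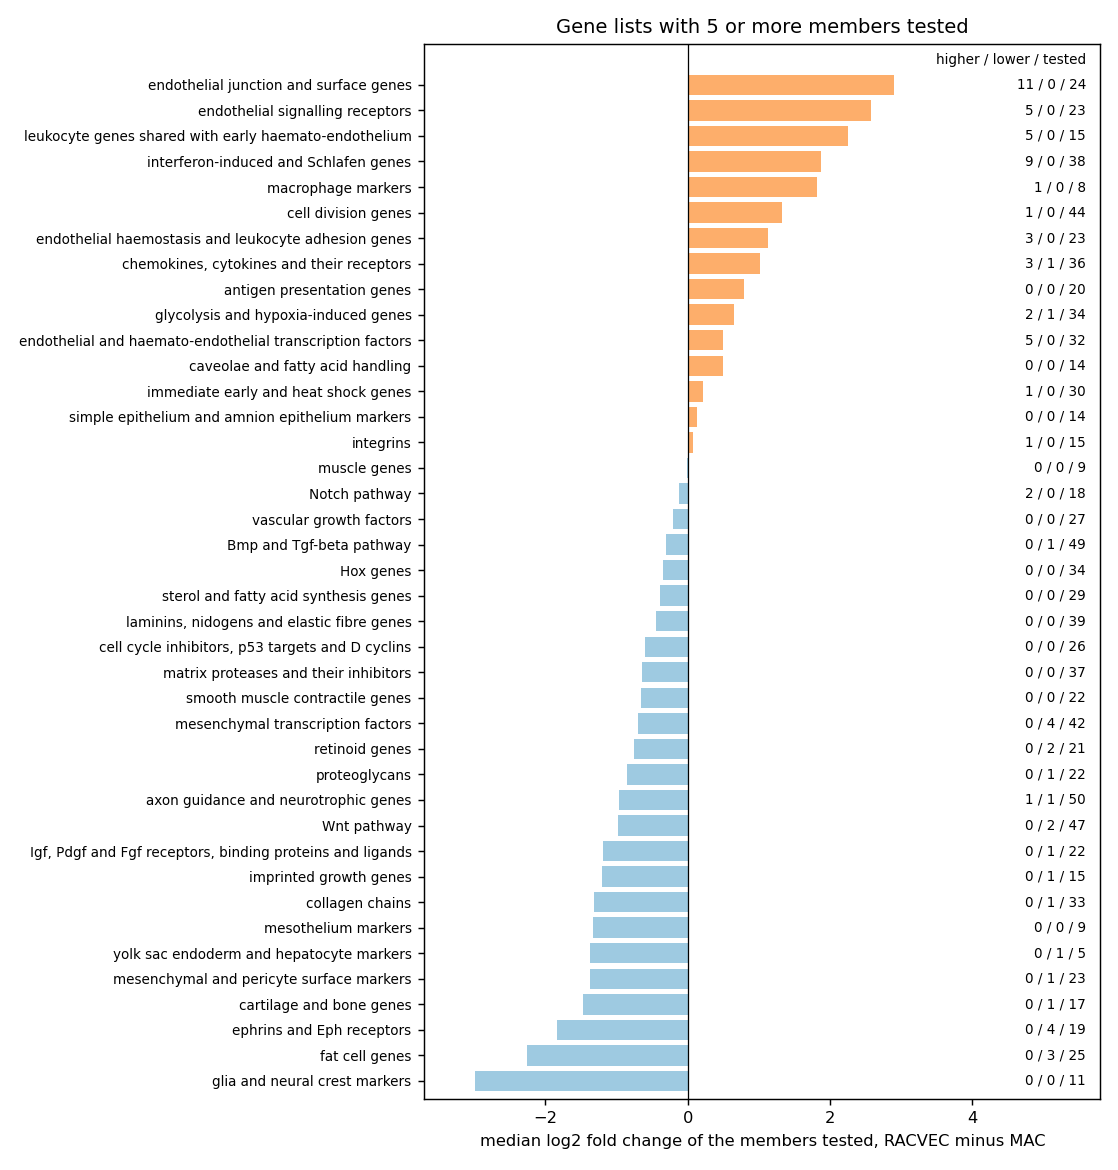
Median log2 fold change (x axis, RACVEC minus MAC) of the members tested of each list with 5 or more such members (rows), with the numbers called higher, called lower and tested at the right. The endothelial junction list stands at the top and the glial and neural crest list at the bottom.

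Genes lower in RACVECs included members of several developmental families. Of the ephrins and Eph receptors, which guide axons and set tissue boundaries, 4 of 19 genes tested were lower and 0 higher, 12 were lower at an unadjusted p below 0.05, 10 were below every MAC library in every RACVEC library, and the median log2 fold change was -1.84. Ephb2 was at 21.2, 44.1 and 52.8 FPKM in MACs and at 1.83, 2.86 and 0 in RACVECs (-4.09 ± 0.91, adjusted p = 0.0165). Epha7 was at 13.3, 16.6 and 29.3 against 3.54, 0.51 and 0.42 (-3.21 ± 0.77, adjusted p = 0.0256). The ligand Efna4 was at 104, 54.0 and 72.8 against 20.3, 21.4 and 28.0 (-1.65 ± 0.38, adjusted p = 0.0221). Efnb3 was the fourth. The call of Ephb2 was lost without MAC 3 or RACVEC 3, and those of the other 3 were each lost without 3 to 5 of the libraries left out in turn. The pair with a vascular role was not among them: Ephb4, the venous receptor, was at 157, 89.3 and 209 FPKM in RACVECs against 109, 105 and 131, and its arterial ligand Efnb2 was at 63.1, 55.8 and 51.6 against 101, 39.1 and 168.

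In axon guidance and neurotrophic genes, 1 of 50 was higher and 1 lower. That is 2% each way, beside 1.55% higher and 1.61% lower over all genes tested, so the list is not set apart. Sema3b, a secreted semaphorin, fell from 85.0, 31.5 and 691 FPKM to 3.45, 0.62 and 0.41 (-5.85 ± 1.18, adjusted p = 0.009), and Sema6b, a membrane semaphorin, rose from 3.24, 12.4 and 47.5 to 86.8, 152 and 58.2 (2.72 ± 0.61, adjusted p = 0.0168). Cell adhesion molecules of the nervous system were among the 15 genes with the largest falls. Cadm1 was at 132, 23.1 and 530 FPKM in MACs and at 0.82, 0 and 1.74 in RACVECs (-6.13 ± 0.95, adjusted p = 0.00119). Its relative Cadm4 was at 33.6, 31.9 and 1114 against 3.57, 0.53 and 2.21 (-5.26 ± 1.22, adjusted p = 0.0218). The other large falls included Ndnf, a secreted neuron-derived factor, from 380, 14.2 and 28.6 FPKM to 1.62, 0 and 0 (-5.33 ± 0.83, adjusted p = 0.00119), and Tmeff2, a membrane protein with follistatin domains (-5.08 ± 0.96, adjusted p = 0.00524).

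Pathways that pattern the embryo had few calls each. In the Wnt pathway 2 of 47 genes were lower and 0 higher, with a positive fold change in 8 of the 47. The ligand Wnt16 was at 13.48, 32.6 and 4.14 FPKM in MACs and at 2.88, 0 and 0 in RACVECs (-3.11 ± 0.69, adjusted p = 0.0162), and the receptor Fzd3 was at 8.85, 3.18 and 14.6 against 0.41, 0.68 and 0.14 (-2.63 ± 0.63, adjusted p = 0.0246). Of 49 Bmp and Tgf-beta genes 1 was lower, Gdf6, a Bmp ligand of joints, at 107, 6.03 and 12.0 against 1.29, 0 and 0 (-4.02 ± 1.03, adjusted p = 0.0367). Of 22 Igf, Pdgf and Fgf genes 1 was lower, the carrier Igfbp2, at 90.7, 12.3 and 137 against 1.62, 0 and 0 (-5.32 ± 1.19, adjusted p = 0.0167). Among 21 retinoid genes Crabp2, a retinoic acid carrier, and Rarres1, a retinoid-induced surface protein, were lower. Rarres1 was at 51.6, 86.3 and 20.9 FPKM against 2.27, 0 and 1.82 (-4.47 ± 0.94, adjusted p = 0.012). With 1 call each, the Bmp and Tgf-beta list and the Igf, Pdgf and Fgf list are not set apart from the 1.61% called lower over all genes tested. The imprinted Impact was nearly equal in the RACVECs, at 113, 114 and 125 FPKM against 424, 204 and 231 (-1.21 ± 0.31, adjusted p = 0.0396). MAC 2 was the lowest MAC library in 123 of the 226 lower genes (54.4%, beside 43.6% of all genes tested), as it was in Gdf6, Igfbp2 and Crabp2.

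Of 42 mesenchymal transcription factors tested 4 were lower and 0 higher, all of them patterning genes. Msx2 was at 158, 7.80 and 28.5 FPKM in MACs and at 1.60, 0.78 and 1.30 in RACVECs (-3.97 ± 1.01, adjusted p = 0.0341). Six2 was at 37.6, 2.16 and 10.3 against 1.16, 0 and 0 (-3.10 ± 0.72, adjusted p = 0.021), and En1 at 13.4, 3.86 and 25.3 against 1.35, 0 and 1.14 (-2.84 ± 0.75, adjusted p = 0.0429). Isl1 was listed at 0 in every RACVEC library and in MAC 2. Without MAC 1, MAC 3, RACVEC 2 or RACVEC 3 none of the 4 was called. Twist1, Prrx1 and Snai2, which mark mesenchyme itself, were not called, and Twist1 was at 305, 177 and 205 FPKM in RACVECs against 808, 251 and 91.7 in MACs (adjusted p = 0.952).

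The mesenchymal character of the cultures was uneven among RACVECs. Cspg4 (NG2), a pericyte proteoglycan, was the only called member of 23 mesenchymal and pericyte surface genes, at 23.1, 41.8 and 86.5 FPKM in MACs and at 3.67, 0.20 and 1.46 in RACVECs (-4.23 ± 0.91, adjusted p = 0.014), a call lost without MAC 3 or RACVEC 2. Thy1 was at 1926 FPKM in RACVEC 1 and 868 in RACVEC 3 but at 6.87 in RACVEC 2, beside 774, 3350 and 1199 in the MACs (adjusted p = 0.49). Pdgfra followed the same order, at 271, 4.47 and 85.5 FPKM in RACVEC 1, 2 and 3 against 279, 473 and 96.0 (adjusted p = 0.485). In both genes RACVEC 2 was far below the other 5 libraries and RACVEC 1 lay among the MACs, while RACVEC 3 lay among them in Thy1 and just below them in Pdgfra.

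Collagen chains had few calls. Of 33 collagen chains tested, 1 was lower and 0 higher, the minor chain Col8a2, at 1.83, 5.52 and 0.95 FPKM against 0 in all RACVECs (-1.72 ± 0.41, adjusted p = 0.0249). Col1a1 was at 1121, 184 and 1254 FPKM in RACVEC 1, 2 and 3 and at 881, 1936 and 524 in the MACs (adjusted p = 0.903), and Col3a1 was at 1439, 473 and 148 against 240, 559 and 180 (adjusted p = 0.877). Among 22 proteoglycans Gpc3 was lower, while limma called 0 of 39 laminins and elastic fibre genes, 0 of 37 matrix proteases and their inhibitors, and 0 of 22 smooth muscle genes. At an unadjusted p below 0.05, 2, 5 and 1 of these lists were lower and 2, 0 and 0 were higher. Acta2 (smooth muscle actin) was at 1057, 132 and 197 FPKM in RACVECs and at 610, 1246 and 722 in MACs (adjusted p = 0.743), whereas Tagln was below the MACs in all 3, at 409, 82.4 and 397 against 556, 1178 and 810 (adjusted p = 0.568). Itgb3, the beta chain of the vitronectin receptor, was the only called integrin, higher at 96.2, 326 and 118 FPKM against 7.97, 4.09 and 122, with MAC 3 overlapping (3.13 ± 0.82, adjusted p = 0.0406).

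**Figure D4:**
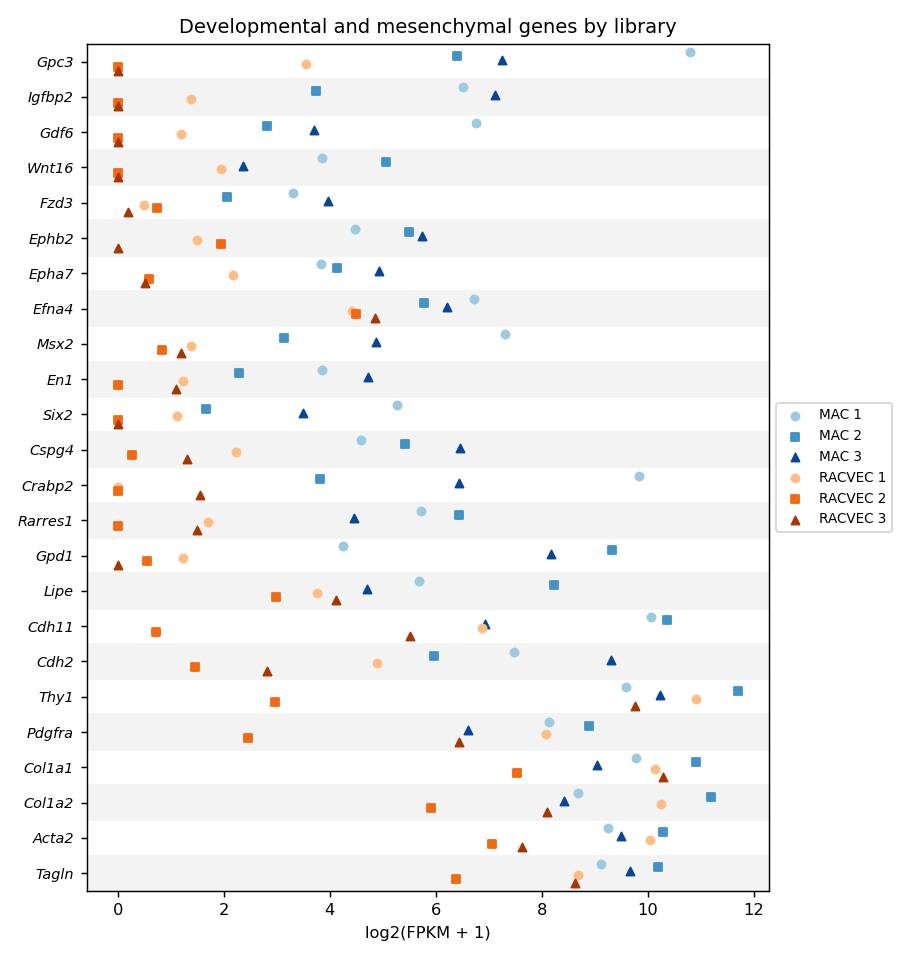
log2(FPKM + 1) of 24 developmental and mesenchymal genes (rows) in each library, with MAC libraries in blue and RACVEC libraries in orange. The upper rows separate the groups, while in Thy1, Pdgfra, Col1a1 and Col1a2 RACVEC 2 is the lowest library and RACVEC 1 lies among the MACs.

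Single MAC cultures expressed genes of other tissues that were low or at 0 in the RACVECs. Of 25 fat cell genes 3 were lower and 0 higher, and MAC 2 was high in several of them: it had 1100 FPKM of Adipoq (adiponectin) against 26.7 and 0 in the other MACs and 2.07, 0 and 0 in RACVECs. The called Lipe (hormone-sensitive lipase) was at 50.6, 299 and 25.1 FPKM against 12.5, 6.92 and 16.4 (-2.59 ± 0.61, adjusted p = 0.0232), a call lost without RACVEC 2. All 11 glial and neural crest genes tested had negative fold changes (median -2.99), of which limma called 0, with 6 at an unadjusted p below 0.05, and they varied widely among the MACs. Over all 14059 genes tested 7017 fold changes were negative. In RACVEC 1, 2 and 3, 6, 5 and 6 of the 11 were at 0. A gene at 0 in all RACVECs passed the filter only through the MACs and could not come out higher. Sox10, the defining factor of the neural crest, was at 68.6, 0.88 and 670 FPKM in MACs and at 0.51, 0 and 0 in RACVECs (adjusted p = 0.1), and Cdh19 was at 15.5, 3.46 and 373 against 0 in all RACVECs (adjusted p = 0.0942). Dmp1, a bone matrix protein, was at 1.48, 122 and 4.82 FPKM in the MACs and listed at 0 in all RACVECs (-3.60 ± 0.88, adjusted p = 0.0281). Its SE draws on the other groups of the series too, and the call was not made from the 6 libraries alone.

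Hox genes, which record position along the body, differed by culture more than by group. Limma called 0 of 34 tested, with 1 higher at an unadjusted p below 0.05. MAC 1 expressed the 5′ end of the Hoxa and Hoxd clusters, with 654 FPKM of Hoxd13 and 227 of Hoxa13, and MAC 3 expressed Hoxb2 to Hoxb9 at 37.7 to 115 FPKM. RACVEC 1 had 135 FPKM of Hoxd13, RACVEC 2 had 189 FPKM of Hoxc10 and 84.9 of Hoxb9, and RACVEC 3 was at 0 in Hoxb2 to Hoxb9 and in all Hoxc genes. Hoxa11 was the member whose groups did not overlap, at 121, 93.2 and 163 FPKM in RACVECs against 92.9, 0 and 30.9 in MACs (adjusted p = 0.316).

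**Figure D5:**
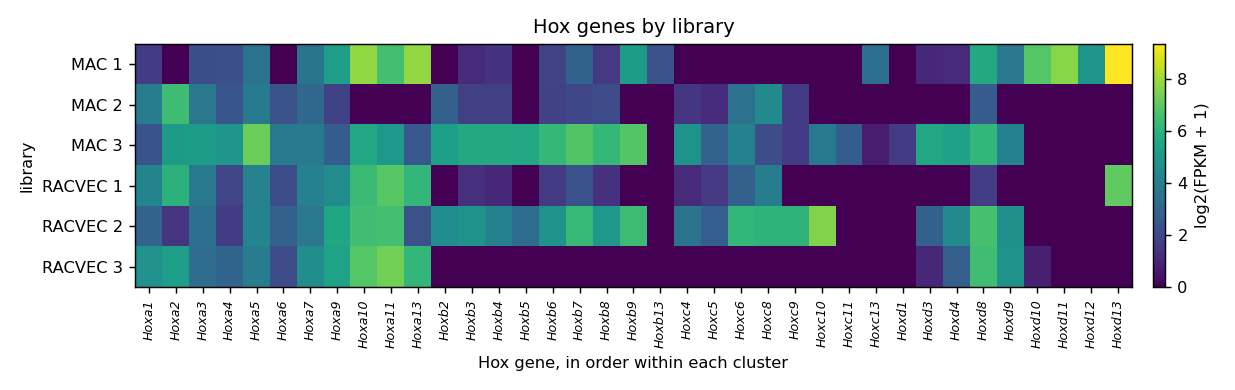
log2(FPKM + 1) as colour for the Hox genes above 0 in at least 1 library (columns, in cluster order) in the 6 libraries (rows). Hoxd13 is bright in MAC 1 and RACVEC 1, and the Hoxb block is bright in MAC 3 and RACVEC 2.

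Growth and metabolism genes had single calls. Of 44 cell division genes 1 was higher and 0 lower, although 40 had positive fold changes (median 1.33). Mcm3, a subunit of the replicative helicase, was at 24.9, 73.0 and 29.8 FPKM in MACs and at 78.1, 196 and 156 in RACVECs (1.79 ± 0.47, adjusted p = 0.0396), and Top2a was at 24.1, 101 and 42.5 against 74.4, 201 and 162 (adjusted p = 0.208). At an unadjusted p below 0.05, 26 of the list were higher. Its groups overlapped, since the median level over the list was 49.5 FPKM in MAC 2 and 37.8 in RACVEC 1. Cdkn2b, the inhibitor that TGF-beta turns on, was at 710, 325 and 992 FPKM in MACs and at 164, 127 and 105 in RACVECs, and missed the threshold (adjusted p = 0.0648). In glycolysis and hypoxia genes 2 of 34 were higher and 1 lower. Ero1a, an oxidase of protein folding induced by hypoxia, was at 151, 59.0 and 610 FPKM against 3262, 1073 and 2953 (3.62 ± 0.65, adjusted p = 0.00392). The neuronal glucose transporter Slc2a3 fell from 57.6, 9.80 and 203 to 2.83, 7.20 and 2.01 (-3.47 ± 0.93, adjusted p = 0.0446), and kept its call only without MAC 2. Gapdh, a glycolytic enzyme often taken as a constant control and a gene with many processed pseudogenes, was higher in RACVECs, at 333, 243 and 305 FPKM against 128, 96.8 and 181 (1.15 ± 0.25, adjusted p = 0.0149).

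A like step was also measured in cells with active Akt, with other mean levels of the factors. Etv2, Erg and Fli1 averaged 330, 605 and 316 FPKM in Akt-RACVECs and 607, 6.21 and 221 in RACVECs. Fli1 averaged 39.0 FPKM in Akt-MACs and 0.753 in MACs. Limma's test of the difference between both pairs called none of these factors (adjusted p = 0.887, 0.172 and 0.265). An effect of Akt and one of factor levels therefore cannot be told apart. Akt-RACVECs against Akt-MACs, a comparison that shares no library with the one above, had 869 genes higher, 6.18% of those tested, and 1677 lower, 11.9%. Of the 218 genes higher in RACVECs 130 were also called higher there, 59.6% of these and 14.96% of the 869, and of the 226 lower genes 148 were also lower, 65.5% of these and 8.83% of the 1677. No gene was called in opposite directions, and 206 of the 218 higher genes had a positive fold change in the Akt pair, where 44.4% of all genes tested did. The overlap is no independent repeat, since both comparisons took the spread of each gene from the same fit. Akt-RACVECs were also RACVECs transduced with Akt, and whether the libraries share cultures is not known. Among endothelial junction genes 19 of 24 were higher in the Akt pair, and among receptors 16 of 23. The log2 fold change of Robo4 was 7.26, that of Tie1 9.77 and that of Gimap6 7.64. Genes that were called with Akt but not without it included Tek (7.59), Aplnr (7.47) and Emcn (9.35).

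Some groups had other values in the Akt pair. Of the 38 interferon-induced and Schlafen genes 3 were higher and 2 lower there, and the log2 fold change of Slfn4 was 1.02, that of Slfn5 1.34 and that of Hcls1 1.09, none of them called. For cell division genes 24 of 44 were higher and 0 lower, and for collagens 2 were higher and 13 lower, among them Col1a1 (-7.06). Of the 8 macrophage markers tested 6 were lower there, and Cd14 had a log2 fold change of -2.84 that was not called. The difference between the fold changes of both pairs was tested for every gene, and 4 genes were called, 0.0285%, none of them in the groups described here. At an unadjusted p below 0.05 and a log2 difference past 1 or -1 there were 1212 genes. The genes just named are therefore not shown to respond differently with and without Akt.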

How the data were processed

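RNA of 3 MAC and 3 RACVEC cultures was analysed from the deposited FPKM of the authors. They sequenced paired reads of polyadenylated RNA (TruSeq, HiSeq2000), aligned them with TopHat to mm9, and made FPKM per RefSeq transcript with Cufflinks, with upper-quartile normalization and bias correction. Versions of these tools, strand setting and read numbers are not given in the sources used here. Depth is therefore unknown, an FPKM of 0 sets no limit, and precision rests on 3 cultures a group. The summed FPKM per library was 1693322 to 2072167, and 13465 to 14584 genes were above 0. Of 27583 transcripts 26934 were joined to a current symbol and 649 without one were kept as genes of their own. FPKM were summed per gene. Of 22282 genes 15810 were above 0 in any of the 6 libraries and 14059 had a mean of at least 1.

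Groups were compared with limma 3.58.1 (R 4.3.3) on log2(FPKM + 1). All 24 libraries of the 8 groups entered the same fit, with moderated variances that follow a trend. Tests were two-sided, and p-values were adjusted after Benjamini and Hochberg for all genes tested. The contrasts were RACVEC minus MAC, Akt-RACVEC minus Akt-MAC and the difference of both. Tables and figures used Python 3.11.15, pandas 2.3.3, numpy 2.4.6, scipy 1.17.1 and matplotlib 3.10.9. The procedure was tested on simulated data. Gene positions are of GENCODE M1 (mm9), matched for 385 of the 444 called genes, and promoters are of RefSeq on GRCm38.p6.

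Members of 43 gene lists (1241 genes) are described by counts and medians. The genes named are the transduced factors, for each direction the 15 most changed of the called genes without overlap, up to 6 called members of each list, up to 3 of the most abundant members of a list with 0 calls, further members that complete a pathway, and others where said. The comparison and the lists were chosen with earlier results of these data known. Alternatives were pseudocounts of 0.1 and 10, no filter, a mean FPKM of at least 10, the 6 libraries alone, these with a replicate block, scaling by the median log2 ratio, single transcripts, the criterion of the study's methods, and leaving out each library. Pairs of libraries named in file headers were added after seeing the data.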

Additional observations from a re-analysis of the deposited data

Results flagged for a closer look

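For 4 genes the difference between RACVECs and MACs was not the same as that between Akt-RACVECs and Akt-MACs, by limma's test of the difference of both log2 fold changes over all 14059 genes tested. Trim14, a member of the tripartite motif family, was at 3.31, 1.59 and 5.19 FPKM in MACs, at 6.44, 8.01 and 13.9 in RACVECs, at 52.1 ± 36.6 (SD, n = 3) in Akt-MACs and at 0 in all Akt-RACVECs, a difference of 6.69 (adjusted p = 0.00496). H2bc13, a histone H2B gene whose reads may be shared with its near-identical copies, was at 0.62 to 2.50 FPKM in MACs and RACVECs, at 18.4 ± 6.15 in Akt-MACs and at 0.71 ± 0.605 in Akt-RACVECs, a difference of 3.86 (adjusted p = 0.00496). Crp, the acute phase protein, was listed at 0 in every MAC, Akt-MAC and Akt-RACVEC library and at 41.8, 34.8 and 12.7 FPKM in RACVECs, a difference of 4.78 (adjusted p = 0.0361). Derl3, a protein of endoplasmic reticulum quality control, was at 15.1 ± 8.58 FPKM in Akt-MACs, at 0 in all Akt-RACVECs and at 0 to 6.33 in the other groups, a difference of 4.66 (adjusted p = 0.0434). With 0.1 added to each FPKM 1 gene was called, and with a mean FPKM of at least 10 limma called 0. Groups of 3 libraries are too small for a check of single libraries as outliers.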

How the results depend on the processing

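The counts kept within 1.5 times of 218 genes higher and 226 lower with 0.1 (245 and 188) or 10 (153 and 172) added to each FPKM, no filter (199 and 232), scaled libraries (220 and 250), single transcripts (203 and 211) and a criterion after the study's methods, applied here to summed genes (216 and 234). Of the 218 and 226 genes themselves, 207 and 157 were still called with 0.1 added, 145 and 118 with 10 added, 198 and 207 with no filter, 208 and 224 with scaling, and 198 and 204 by single transcripts. A mean FPKM of at least 10 gave 120 lower, as fewer genes were tested, and 1073 lower in the Akt pair in place of 1677. The 6 libraries alone gave 59 higher, 17 lower and 26 of 78 list members called, and 51 of the 218 and 13 of the 226 genes were among them. The difference between both pairs was called for 1 gene with 0.1 added and for 0 with a mean of at least 10. Leaving out 1 library gave 119 to 268 genes higher, 74 to 580 lower, 39 to 111 list members and 4 to 30 genes for the difference. The extremes of the lower genes came without RACVEC 2 (74) and without MAC 2 (580), for which the cause was not tested. Of 49 named higher genes 31 stayed called whichever library was left out, and of 34 named lower genes 8 did, namely Fxyd1, Gpd1, Crabp2, Cadm1, Sema3b, Tmem179, Ndnf and Tmeff2. No named gene that was called changed direction under any alternative. Unknown depth leaves the error of low values unknown.

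The replicate numbers were not found to pair the cultures, since deviations of MACs and RACVECs with the same number correlated at -0.0557, -0.0997 and 0.0419. With the number as a block in the fit of the 6 libraries limma called 4 genes higher, 1 lower and 5 list members. The file headers pair MAC 2 with RACVEC 1 and MAC 3 with RACVEC 2, whose deviations correlated at 0.16 and 0.0705. All other combinations, those of the same number among them, lay between -0.123 and 0.0419. Whether the header pairs share a culture was not tested. A block of the header pairs, to which the other 2 libraries add nothing, gave 0, 0 and 0. In that fit 1081 genes had an unadjusted p below 0.05 together with a log2 fold change past 1 or -1. So few libraries say nothing about stability.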

Other observations

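Lists that the account above did not take up were also described. Of 14 genes of caveolae and fatty acid handling tested limma called 0, with 3 higher and 1 lower at an unadjusted p below 0.05. Fabp4, a fatty acid carrier of fat cells and of endothelium, was uneven among the MACs, at 1437, 9686 and 30.7 FPKM in MAC 1, 2 and 3 and at 5182, 11291 and 7215 in RACVECs (adjusted p = 0.176), and it was called without MAC 2, with a log2 fold change of 5.14. Gpihbp1, the capillary anchor of lipoprotein lipase, was listed at 0 in all MACs and at 15.8, 3.76 and 2.56 FPKM in RACVECs (adjusted p = 0.0567). Of 20 antigen presentation genes limma called 0, with 6 higher and 1 lower at an unadjusted p below 0.05, and H2-K1, a class I heavy chain whose reads may be shared with its paralogues, was at 1064, 2255 and 922 FPKM against 685, 244 and 663 (adjusted p = 0.187).

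Among 30 immediate early and heat shock genes 1 was higher, the phosphatase Dusp1, at 1018, 247 and 1462 FPKM against 93.6, 206 and 114 (2.45 ± 0.62 SE, adjusted p = 0.0323). Limma called 0 of 26 cell cycle inhibitors, 0 of 29 sterol and fatty acid synthesis genes, 0 of 14 epithelial, 0 of 9 mesothelial and 0 of 9 muscle genes, with 6, 1, 0, 0 and 0 lower and 1, 2, 1, 0 and 0 higher at an unadjusted p below 0.05. Msln (mesothelin) was at 2026 FPKM in RACVEC 3 and did not exceed 7.92 in the other 5 libraries, while the mesothelial Wt1, Upk3b, Lrrn4 and Gpm6a were listed at 0 in all RACVECs.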
